A study of Mus musculus with 12 samples.

Results

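Potassium channel genes, which carry symbols that begin with Kcn, were followed in hippocampal RNA of mouse pups. Members were taken by symbol from the deposited table of FPKM (fragment numbers scaled by transcript length and library depth): every row starting with Kcn and a letter, apart from Kcnj13, Kcne2 and symbols that end in os or -ps. This gave 94 genes of 29454 rows. By symbol, 39 are voltage-gated pore subunits, 14 inward rectifiers, 14 two-pore channels, 8 calcium- and sodium-activated pore subunits and 16 auxiliary subunits. The other 3 (Kcnq1ot1, Kcnmb4os2 and Kcnmb4os1) are RNAs made from the opposite strand of a Kcn gene and encode no channel. Kcne2, Kcnj13, Kcnd3os and Kcnab3os were the 4 Kcn rows that the rule left out.

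The 12 libraries fall into 3 groups of littermate pups, on the C57/BL6 strain and at postnatal day 4 per the sample labels (the design text of the series gives day 0). WT (n = 3) stands for wild type. CAMK (n = 3) carried CaMKIIα-tTA, a driver in which the promoter of a gene of forebrain excitatory neurons makes the tetracycline transactivator. CX3CL1-ct (n = 6) carried this driver together with the Tg-CX3CL1-ct transgene, named for the C-terminal part of the chemokine CX3CL1, so both transgenic groups share the driver. Tg-CX3CL1-ct mice had been crossed to C57BL/6J for 6 generations. No label gives sex, litter or batch, or says that a library is 1 animal, so p-values measure the spread between these samples, which may be technical.

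Potassium channels let potassium leave or enter the cell along its gradient and so set the resting potential, end action potentials and limit repeated firing. Voltage-gated channels open on depolarisation, inward rectifiers pass current best near rest, two-pore channels carry a leak, and calcium- and sodium-activated channels follow the ions that enter during activity. Auxiliary subunits bind the pore subunits and alter their gating or their transport to the membrane. In hippocampal neurons these channels shape dendritic integration and spike patterning, while astrocytes use inward rectifiers to take up potassium released by neurons.

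Library sums of FPKM ran from 552481 to 659362, and depth, estimated from the lowest values of single-exon genes, was 11800000 to 15900000 fragments. At the depth of a typical library, 1 FPKM is about 13.6 fragments per kilobase of transcript. Every marker of the 10 cell type and region lists was in the table, and the markers of hippocampal neurons were high (Neurod6 at 43.8 to 162.8 FPKM), which fits the labelled tissue. Libraries differed in markers of neighbouring regions. The 9 striatal markers summed to 194.9 FPKM in WT 2, 139 in WT 3 and 129 in CX3CL1-ct 5, and to 24.9 to 43.5 in the other 9 libraries. The 7 thalamic markers summed to 101.6 in CAMK 2, 81 in CAMK 3 and 111 in CX3CL1-ct 5 and to 34.3 to 46.4 elsewhere, with Gbx2 at 0 in WT 1 and CAMK 1. The 8 markers of hippocampal neurons summed to 126 in CX3CL1-ct 5 and to 232 to 424 in the others. CX3CL1-ct 1, 2 and 3 were closer to each other than other replicates (interquartile range of the log2 difference 0.0938 to 0.130 against 0.135 to 0.356). In bulk RNA, fewer cells of a type and less RNA per cell cannot be told apart.

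Promoter sequence was set beside expression, because the Kcn genes span the whole range from strong expression to near absence. RefSeq (GRCm38.p6) gave the 250 bases before the start for 68 of the 94 members. At least 10 CpG dinucleotides stood in 34 of 52 promoters of members that passed the filter described below (65.4%) and in 4 of 16 of those that did not (25%), against 40.2% of all 27018 promoters of the same length. The shares among all genes that passed or failed the filter were not taken, so this split cannot be called particular to Kcn genes. CG is its own reverse complement, so 1 strand was searched. The share was 75% in voltage-gated genes (18 of 24) and 33.3% in inward rectifiers (4 of 12). Of each pore class, the most expressed member with a window free of exons is printed 5′ to 3′ on the strand of the gene, followed by the 2 members with the lowest means that also have one. CG is in capitals. The windows are chr6:21215096-21215345 (plus strand, 22 CpG) for Kcnd2, chr15:79505242-79505491 (minus, 35) for Kcnj4, chr8:125994852-125995101 (plus, 0) for Kcnk1, chr1:140245468-140245717 (plus, 10) for Kcnt2, chr9:32393735-32393984 (plus, 2, inside an intron of the annotated gene) for Kcnj1 and chr14:20269270-20269519 (minus, 0) for Kcnk16.
Kcnd2: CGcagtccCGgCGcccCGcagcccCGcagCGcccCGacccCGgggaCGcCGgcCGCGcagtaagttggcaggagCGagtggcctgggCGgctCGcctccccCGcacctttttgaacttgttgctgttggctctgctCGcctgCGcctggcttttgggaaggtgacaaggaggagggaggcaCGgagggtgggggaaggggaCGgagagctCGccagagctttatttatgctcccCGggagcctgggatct
Kcnj4: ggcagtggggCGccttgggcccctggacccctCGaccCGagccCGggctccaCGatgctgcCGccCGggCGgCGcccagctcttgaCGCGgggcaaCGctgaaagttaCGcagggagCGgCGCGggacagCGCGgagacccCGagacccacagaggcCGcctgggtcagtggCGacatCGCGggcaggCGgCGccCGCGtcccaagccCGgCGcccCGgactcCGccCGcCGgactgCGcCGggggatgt
Kcnk1: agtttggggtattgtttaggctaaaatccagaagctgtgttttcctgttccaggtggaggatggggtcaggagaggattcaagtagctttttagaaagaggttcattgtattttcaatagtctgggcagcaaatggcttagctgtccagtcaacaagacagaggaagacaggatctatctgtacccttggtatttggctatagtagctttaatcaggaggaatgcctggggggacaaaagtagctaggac
Kcnt2: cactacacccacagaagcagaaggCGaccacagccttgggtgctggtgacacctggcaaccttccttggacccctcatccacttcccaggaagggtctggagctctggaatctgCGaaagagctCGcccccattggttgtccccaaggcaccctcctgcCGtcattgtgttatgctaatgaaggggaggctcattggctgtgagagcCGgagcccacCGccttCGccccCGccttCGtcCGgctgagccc
Kcnj1: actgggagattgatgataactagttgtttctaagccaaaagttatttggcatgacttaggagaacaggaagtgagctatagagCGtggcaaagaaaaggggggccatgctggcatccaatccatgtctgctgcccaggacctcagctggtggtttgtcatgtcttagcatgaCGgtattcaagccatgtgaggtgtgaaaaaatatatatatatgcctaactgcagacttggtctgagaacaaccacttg
Kcnk16: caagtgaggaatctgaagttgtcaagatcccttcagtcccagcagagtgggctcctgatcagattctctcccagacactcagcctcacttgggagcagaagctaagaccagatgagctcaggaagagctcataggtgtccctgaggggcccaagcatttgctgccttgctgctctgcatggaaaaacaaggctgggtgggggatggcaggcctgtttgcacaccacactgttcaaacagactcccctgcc
Kcnd2, Kcnj4 and Kcnt2, with means of 35.9, 7.78 and 9.11 FPKM over the 12 libraries, have CpG-dense windows. Kcnk1, at 20.5 FPKM, has none in its window and so resembles Kcnk16, at 0.00914 FPKM. The match of letters is a description and no test of promoter use.

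The filter for testing, 1 FPKM or more in 3 or more libraries, was passed by 72 of the 94 members, among 16503 genes in all. These were 34 of 39 voltage-gated genes, 10 of 14 inward rectifiers, 8 of 14 two-pore channels, 7 of 8 calcium- and sodium-activated channels, 11 of 16 auxiliary subunits and Kcnq1ot1 and Kcnmb4os2. Of the 72, 68 reached 1 FPKM in all 12 libraries, and 25 had a mean of at least 10. The 22 members below the filter were Kcnj5, Kcnq1, Kcnk6, Kcnh6, Kcne4, Kcnj14, Kcnk5, Kcnn4, Kcng4, Kcne3, Kcnmb1, Kcnj15, Kcnk15, Kcnk7, Kcnmb4os1, Kcne1, Kcna7, Kcnmb3, Kcnk16, Kcnv2, Kcnk18 and Kcnj1, from a mean of 0.512 FPKM for Kcnj5 down to 0.00463 for Kcnj1. Among them are genes known from heart, kidney or other organs, such as Kcnj1 of the kidney tubule and Kcne1 of the heart. All members together summed to 649 ± 30.1 FPKM (SD, n = 12), which was 0.228 to 0.249% of the FPKM of protein-coding genes.

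Voltage-gated genes held 49.4% of the Kcn sum, at 321 ± 15.9 FPKM (SD, n = 12). Kcnd2, the pore of the dendritic A-type current (chromosome 6, 21215503 to 21729805, plus strand, mm10), read 37.2, 39.7 and 41.6 FPKM in WT, 32.6, 38.1 and 38.0 in CAMK and 30.3 to 42.5 (median 32.5) in CX3CL1-ct. The 3 groups overlapped. Kcnq3, a subunit of the slow M-current channel that restrains repeated firing, had a mean of 21.2 ± 2.77 FPKM, below Kcnd2 in 12 of 12 libraries, and Kcna6, a Shaker-type delayed rectifier, had 19.5 ± 1.84, below Kcnq3 in 10 of 12. Kcna4, the inactivating Shaker-type channel, and Kcnh7, a channel of the ether-a-go-go family, came next at 14.5 ± 2.56 and 14.2 ± 2.57, with Kcna4 the higher in 4 of 12.

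Within the voltage-gated families the order was mostly stable from library to library. Among Shaker-type genes it ran Kcna6, Kcna4, Kcna3, Kcna2, Kcna1, Kcna5 and Kcna7, and each was above the next in 10 to 12 of 12 libraries. Kcnd2 exceeded Kcnd3, and Kcnd3 exceeded Kcnd1, in 12 of 12. Kcnc2 and Kcnc1, channels that let cells fire fast, did not separate (7 of 12). Kcnv1, a silent subunit that assembles with Kcnb pores, had a mean of 10.6 ± 3.19 FPKM, while its relative Kcnv2 was at or below 0.0305 in each library.

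Inward rectifiers were led by Kcnj3 and made up 8.82% of the Kcn sum (57.3 ± 5.23 FPKM, SD, n = 12). Kcnj3 encodes a subunit of the channels that open when G proteins are released by receptors. It stood at 22.1, 12.6 and 16.9 FPKM in WT, at 20.5, 19.1 and 19.2 in CAMK and at 13.9 to 24.2 (median 20.8) in CX3CL1-ct, above every other inward rectifier in all 12 libraries. Its low values were those of WT 2, WT 3 and CX3CL1-ct 5, the libraries with the most striatal marker RNA; the part of these markers in the level was not tested. Its partners Kcnj9 and Kcnj6 had means of 4.91 ± 1.21 and 4.74 ± 0.847 FPKM. Kcnj4, a strong rectifier of forebrain neurons, had 7.78 ± 2.04, and Kcnj11, the pore of the ATP-sensitive channel, 4.83 ± 0.845. Kcnj9, Kcnj11 and Kcnj6 could not be ordered, since each was above the next in 6 of 12 libraries.

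Two-pore genes summed to 70.2 ± 6.61 FPKM (SD, n = 12), and 4 of the 14 carried most of it. Kcnk1 read 29.4, 19.5 and 23.4 FPKM in WT, 21.3, 18.4 and 18.1 in CAMK and 14.4 to 26.6 (median 19.1) in CX3CL1-ct. Kcnk10 and Kcnk2, which respond to stretch and lipids, had means of 15.2 ± 1.98 and 11.7 ± 1.11, and Kcnk9, an acid-sensitive leak channel, 12.0 ± 2.24. The remaining tested members (Kcnk3, Kcnk12, Kcnk4 and Kcnk13) had means of 0.938 to 3.26, and Kcnk2 exceeded Kcnk3 in 12 of 12 libraries. Kcnk9 and Kcnk2 did not separate (7 of 12).

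Calcium- and sodium-activated genes summed to 72.2 ± 7.44 FPKM (SD, n = 12). Kcnma1, the pore of the large-conductance calcium-activated channel (chromosome 14, 23289431 to 24014491, minus strand), stood at 32.6, 29.3 and 27.7 FPKM in WT, 40.0, 35.7 and 35.6 in CAMK and 26.4 to 41.0 (median 29.5) in CX3CL1-ct. It was above the rest of its class in all 12 libraries. Kcnn2, a small-conductance channel that dampens synaptic potentials, followed at 9.69 ± 1.37, then the sodium-activated Kcnt2 at 9.11 ± 1.94 and Kcnt1 at 8.06 ± 1.45, and neighbours in that order swapped places in 3 to 4 of 12 libraries. Kcnu1, a channel best known from sperm, was listed at 2.16 FPKM on average.

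Auxiliary subunits summed to 118.5 ± 2.41 FPKM, the class with the smallest relative spread. Kcnmb4, the neuronal partner of Kcnma1, was the highest at 22.7 ± 3.91, followed by Kcnip2 at 19.4 ± 2.39 and Kcnip1 at 17.3 ± 4.89, which bind Kcnd pores, and Kcnab2, a cytoplasmic partner of Shaker-type channels, at 12.4 ± 1.94. Each was above the next in 9 of 12 libraries. Exons of 30 of the 94 members overlap another annotated gene, 26 of them among the tested. The use of strand in counting is not given in the sources used here, so Kcnmb4 (chromosome 10, 116417861 to 116473878) and its opposite-strand RNA Kcnmb4os2 (3.13 ± 1.05 FPKM) may share fragments, as may Kcnq1 and Kcnq1ot1 (7.07 ± 0.695), Kcnh7 and Gca, and Kcnh3 and Mcrs1.

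**Figure D1:**
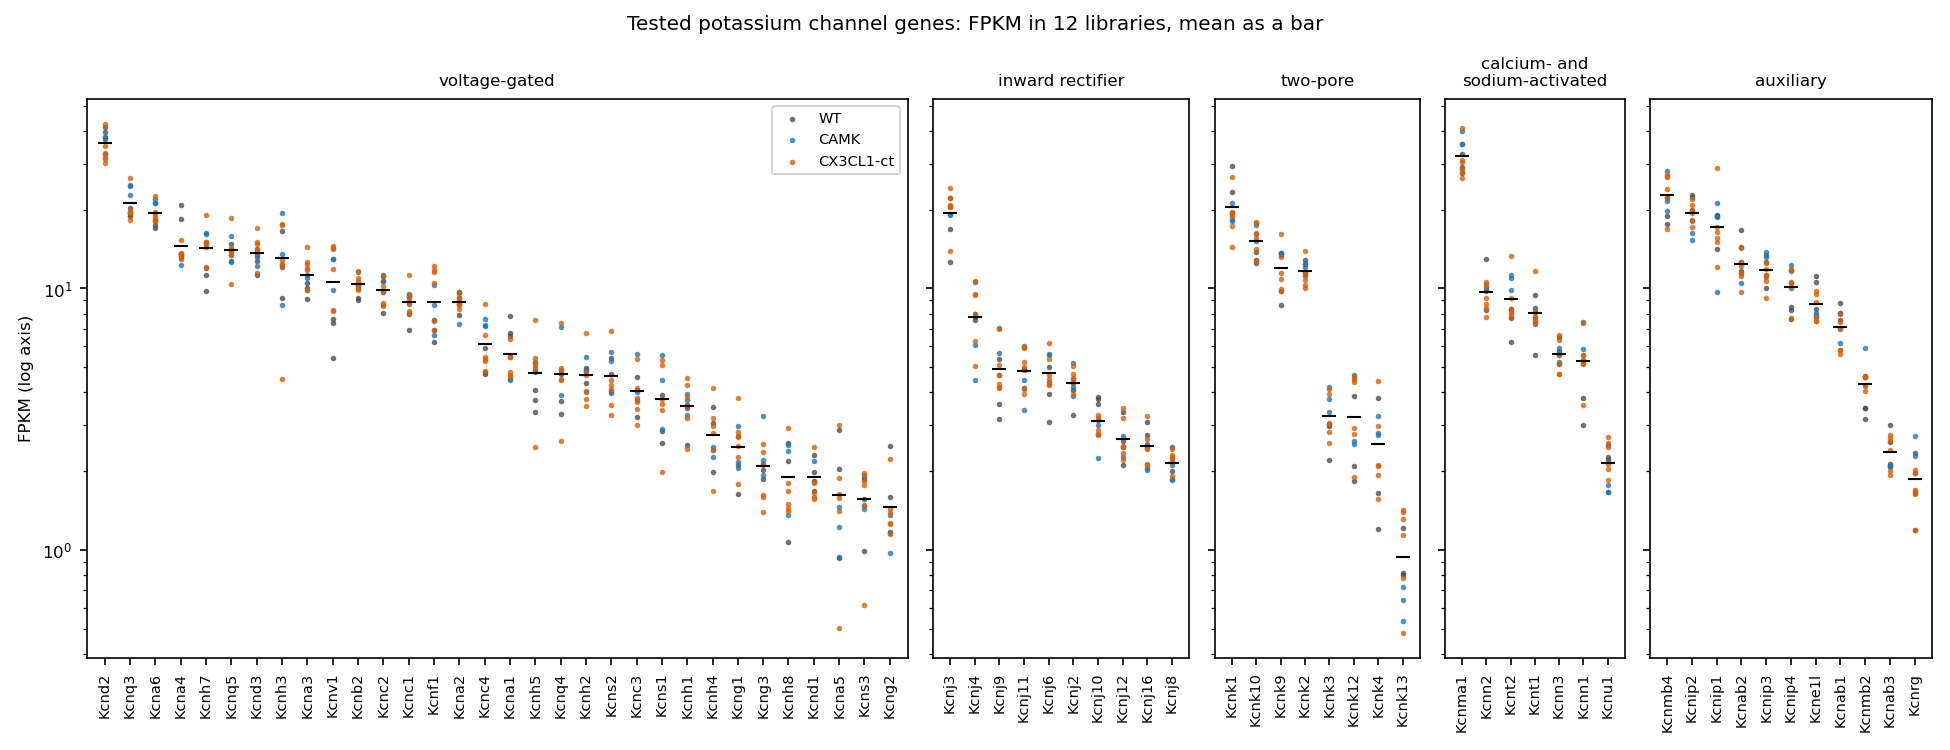
FPKM of 68 of the 70 tested channel genes of the 5 classes (y axis, logarithmic) in each of the 12 libraries (points, coloured by group), with the mean as a bar and genes ordered by mean within each class (x axis). Kcnd2 stands at 35.9 FPKM among the voltage-gated genes, and Kcnj3, Kcnk1, Kcnma1 and Kcnmb4 lead the other classes.

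**Figure D2:**
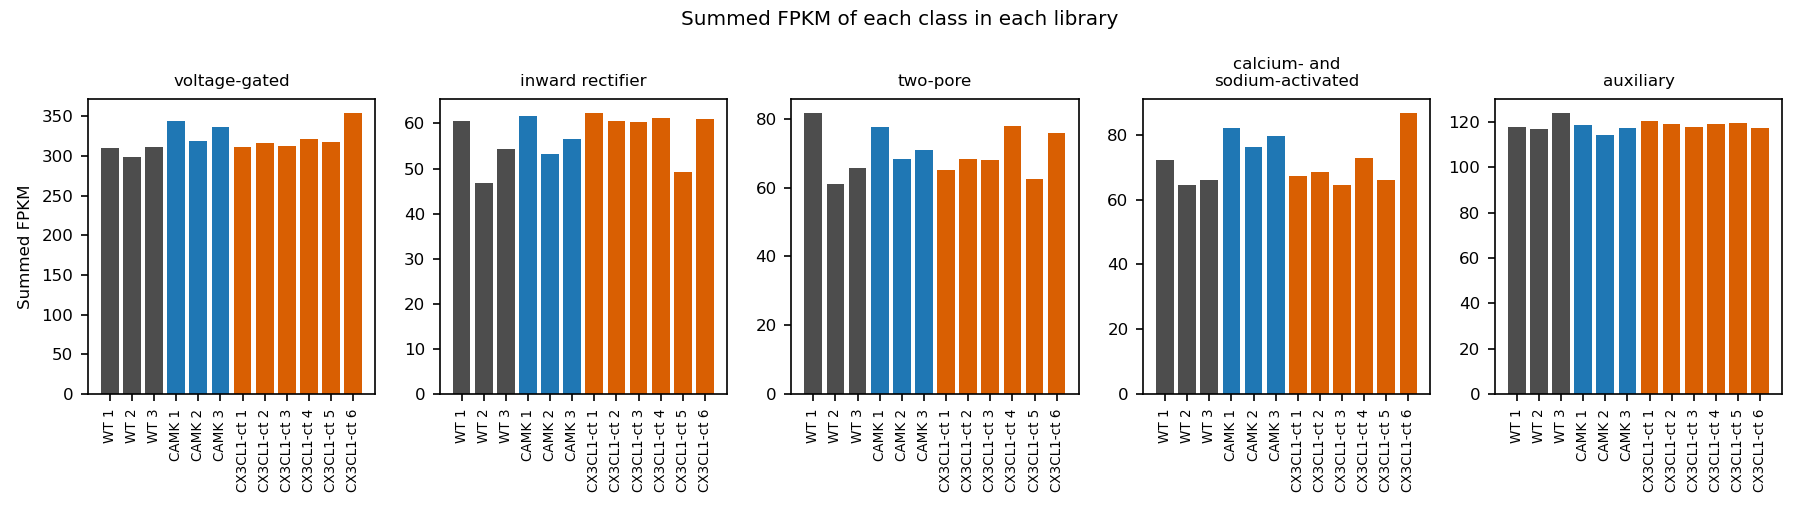
Summed FPKM (y axis, from 0) of each class in each library (x axis, bars coloured by group). Auxiliary subunits range from 114 to 124 FPKM over the 12 libraries, while two-pore genes range from 60.9 to 81.7.

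WT and CAMK did not overlap in the sums of voltage-gated and of calcium- and sodium-activated genes. In voltage-gated genes the sums were 309.6, 298 and 311.5 FPKM in WT, 344, 318 and 336 in CAMK and 311.6 to 354 in CX3CL1-ct, with the lowest CX3CL1-ct library just above the highest of WT. As a share of protein-coding FPKM, CX3CL1-ct (0.112 to 0.125%) overlapped WT (0.113 to 0.117%), and CAMK, at 0.121 to 0.122%, stayed above WT. Calcium- and sodium-activated genes summed to 72.1, 64.5 and 66.0 in WT and 82.0, 76.2 and 79.7 in CAMK, without overlap, and to 64.6 to 86.7 in CX3CL1-ct, across both. The sums of inward rectifiers were 60.5, 46.9 and 54.4 in WT, 61.7, 53.1 and 56.5 in CAMK and 49.3 to 62.3 in CX3CL1-ct, and those of two-pore genes 81.7, 60.9 and 65.6, then 77.7, 68.4 and 70.8, then 62.5 to 77.8. In these 2 classes all groups overlapped, and WT 2 and CX3CL1-ct 5 were the lowest libraries. No p is given for a class sum.

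Spread between libraries of 1 group was larger for Kcn genes than for genes at large. The SD of log2(FPKM + 1) about the group means had a median of 0.20 over the 72 members and of 0.15 over the 16503 genes tested. The 2 sets were not matched in level, and log2(FPKM + 1) understates changes of low genes. By channel class the median ran from 0.17 in auxiliary subunits to 0.23 in two-pore genes. Kcnh3, an ether-a-go-go family channel of forebrain neurons, had the largest SD, 0.58. It stood at 16.6, 9.15 and 12.1 FPKM in WT, 19.4, 8.65 and 13.5 in CAMK and 4.50 to 17.7 (median 12.6) in CX3CL1-ct, lowest in CX3CL1-ct 5. Kcnk12, a two-pore channel, followed a similar course at 3.87, 1.84 and 2.10, then 4.67, 2.55 and 2.60, then 1.91 to 4.59 (median 3.66). In each group both were lowest in a library with raised striatal or thalamic markers (WT 2, CAMK 2 and CX3CL1-ct 5) and highest in WT 1, CAMK 1 and CX3CL1-ct 6.

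Kcna5, a Shaker-type delayed rectifier, and Kcnip1 ran the other way. Kcna5 read 0.932, 2.88 and 2.04 FPKM in WT, 0.936, 1.46 and 1.23 in CAMK and 0.504 to 3.003 (median 1.61) in CX3CL1-ct. Kcnip1 read 14.1, 19.0 and 18.9, then 9.66, 21.3 and 18.8, then 12.1 to 28.9 (median 16). The highest value of each was in CX3CL1-ct 5, the library lowest in hippocampal neuron markers. Kcnk4, a stretch-activated two-pore channel that shares exons with Catsperz, read 3.81, 1.21 and 1.64 in WT, 3.25, 2.80 and 2.74 in CAMK and 1.57 to 4.41 (median 2.11) in CX3CL1-ct, and Kcnj4 read 7.97, 7.56 and 7.74, then 10.6, 4.46 and 6.06, then 5.05 to 10.7 (median 8.69). The part of regional markers in these levels was not tested.

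Single libraries often held the extreme value. CX3CL1-ct 5 had the highest FPKM of 17 members and the lowest of 14, so that it was an extreme for 43.1% of the 72 members, against 30.6% of all genes tested. CX3CL1-ct 6 was highest for 17 and lowest for 5 (30.6% against 18.9%). WT 2 was lowest for 17 members, among them Kcnj3, Kcnj6 and Kcnj9, the G-protein-gated subunits that passed the filter, and CAMK 1 was highest for 12. As extremes in either direction both libraries were near the share of all genes (27.8% against 24.1% and 23.6% against 22.2%). CX3CL1-ct 1, 2 and 3, which lay close together, were extremes for 4, 4 and 3 members.

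**Figure D3:**
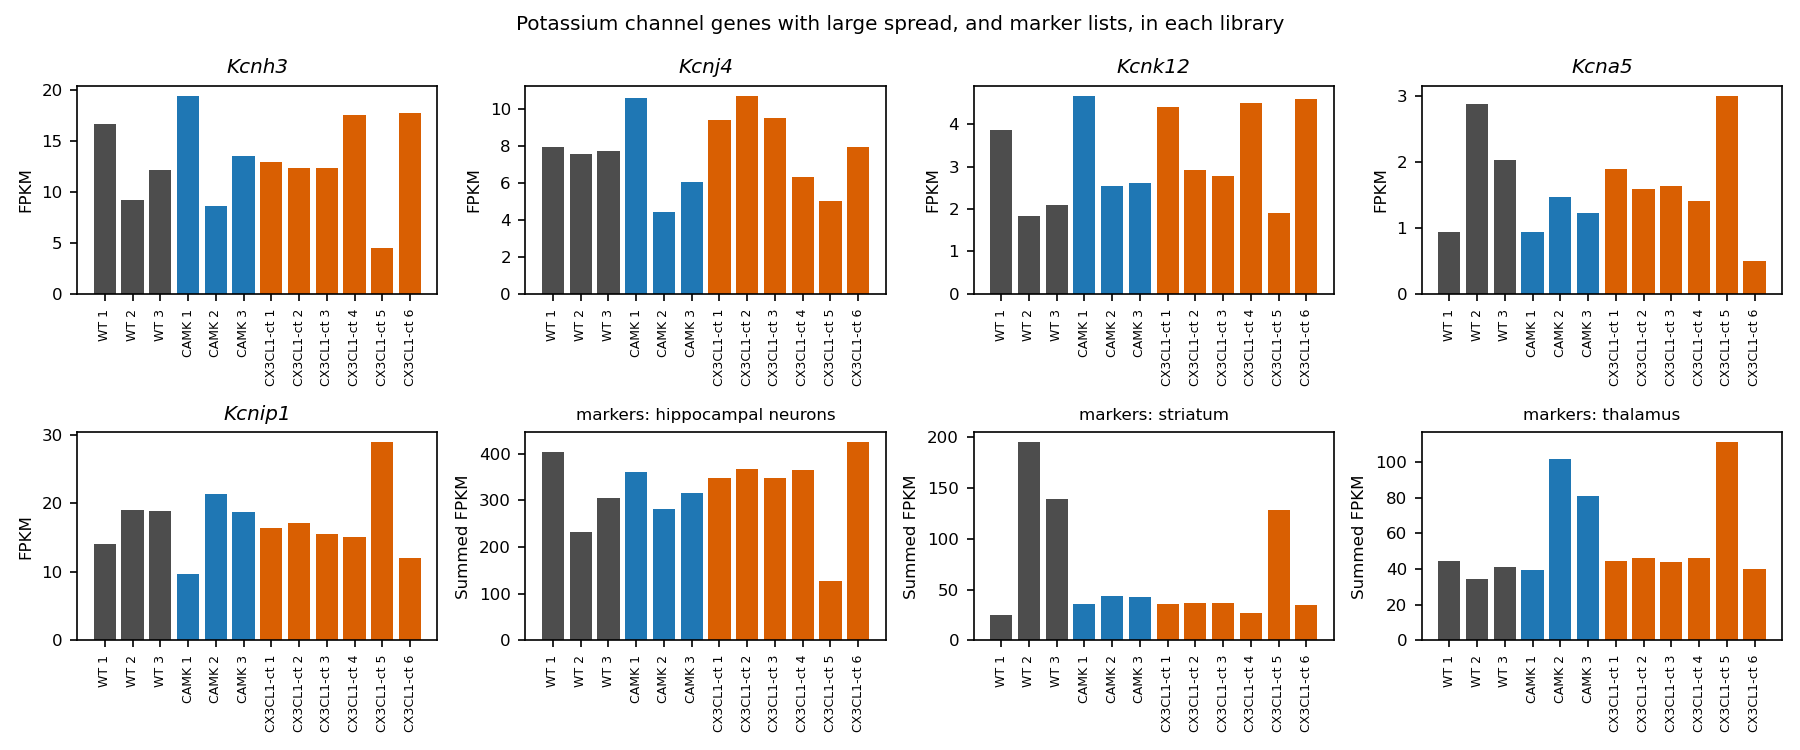
FPKM of Kcnh3, Kcnj4, Kcnk12, Kcna5 and Kcnip1, and the summed FPKM of the hippocampal neuron, striatal and thalamic marker lists (y axes, from 0), in each library (x axis, bars coloured by group). CX3CL1-ct 5 has the lowest Kcnh3 (4.50) and the highest Kcnip1 (28.9), along with the lowest hippocampal neuron sum (126).

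The first comparison, CX3CL1-ct with CAMK, sets libraries with the CX3CL1 transgene beside those without it, on a shared driver background. As no label gives litter or batch, other differences between the groups cannot be told apart from the transgene. No Kcn gene passed the test (limma on log2(FPKM + 1) over all 12 libraries, Benjamini-Hochberg adjusted p under 0.05), in a comparison that called 0.0606% of all genes tested (10 of 16503). At an unadjusted p under 0.05 there were 3 of 72 members (4.17%, against 6.37% of all genes), 1 with the higher mean in CX3CL1-ct (1.39%, against 5.33%) and 2 with the lower (2.78%, against 1.04%). No member had groups that did not overlap, against 2.78% of all genes with CX3CL1-ct higher and 0.527% with it lower. The median log2 difference was -0.02 over the 72 members and 0.04 over all genes tested. By class it was -0.03 in voltage-gated genes (10 of 34 positive), 0.07 in inward rectifiers (8 of 10), -0.06 in two-pore genes (2 of 8), -0.13 in calcium- and sodium-activated genes (3 of 7) and 0.04 in auxiliary subunits (6 of 11). With median-of-ratios scaling the auxiliary median was 0.00 on the lower side (-0.00397, 5 of 11 positive) and 2 of 7 calcium- and sodium-activated genes were positive, and without WT 2, WT 3 and CX3CL1-ct 5 the auxiliary median was -0.05.

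The smallest p belonged to Kcnip2 (chromosome 19, 45791839 to 45816061, minus strand), which stood at 18.2, 15.3 and 16.4 FPKM in CAMK and 17.2 to 22.01 (median 19.6) in CX3CL1-ct. The log2 difference was 0.22 (95% interval 0.04 to 0.40, adjusted p = 0.725), and the groups overlapped. Without CAMK 2, CAMK 3 and CX3CL1-ct 5, the libraries with thalamic markers, it was 0.13, with CAMK 1 alone in its group. Kcnq3 stood at 22.8, 24.8 and 24.6 in CAMK and 18.2 to 26.6 (median 19.6) in CX3CL1-ct, a log2 difference of -0.23 (adjusted p = 0.767), and of -0.14 without the same 3 libraries. Kcnma1, with 40.0, 35.7 and 35.6 in CAMK and 26.4 to 41.0 in CX3CL1-ct, differed by -0.27 (adjusted p = 0.774). In both genes 5 of the 6 CX3CL1-ct libraries lay under all 3 CAMK libraries, and CX3CL1-ct 6 alone lay above them. Kcna6 (-0.14), Kcnrg (-0.30, and -0.18 without the libraries with thalamic markers), Kcnc2 (-0.20), Kcnk13 (0.33, and 0.62 with a pseudocount of 0.1) and Kcnc4 (-0.27) came next, each with an adjusted p of 0.775. Kcnk13, a two-pore channel of microglia, stood at 0.536, 0.644 and 0.723 in CAMK and 0.483 to 1.42 (median 1.23) in CX3CL1-ct, while the 6 microglial markers summed to 35.4 to 40.3 and 33.5 to 49.1 FPKM, and their part in the result was not tested. Kcnj8, the vascular subunit of ATP-sensitive channels, had the smallest p of the inward rectifiers, at 1.87, 2.11 and 1.85 in CAMK and 1.92 to 2.43 (median 2.23) in CX3CL1-ct.

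CX3CL1-ct against WT compares the driver and transgene together with neither. It called 0 of the 72 members, where 0.454% of all genes tested were called (75 of 16503). An unadjusted p under 0.05 was reached by 14 members (19.4%, against 12.3% of all genes), 9 with the higher mean in CX3CL1-ct (12.5%, against 8.80%) and 5 with the lower (6.94%, against 3.49%). Groups did not overlap for 5 members with CX3CL1-ct higher (6.94%, against 4.67% of all genes) and for 2 with it lower (2.78%, against 1.38%). Medians were 0.06 over the members and 0.04 over all genes. They were 0.06 in voltage-gated genes (21 of 34 positive), 0.05 in inward rectifiers (7 of 10), 0.15 in two-pore genes (6 of 8), 0.10 in calcium- and sodium-activated genes (5 of 7) and -0.07 in auxiliary subunits (3 of 11). Without WT 2, WT 3 and CX3CL1-ct 5, chosen for their striatal markers, the two-pore median was -0.07, the inward rectifier median -0.03 and the auxiliary median 0.00. That fit leaves WT 1 as the only WT library. With median-of-ratios scaling 37 of the 72 members were positive in place of 43, with a median of 0.01. By class, 18 of 34 voltage-gated genes (median 0.01), 5 of 10 inward rectifiers and 4 of 7 calcium- and sodium-activated genes were then positive.

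CAMK against WT compares the driver alone with neither transgene. It shares its WT libraries with the comparison above, which in turn shares the CX3CL1-ct libraries with the first, so the values of 1 gene in these comparisons are not independent. Again 0 of 72 members were called, where 0.358% of all genes tested were (59 of 16503). With the replicate number as a block, in a fit to these 2 groups alone, 0 members and 112 genes were called. No label says that the numbers mark pairs. Of the members, 19 reached an unadjusted p under 0.05 (26.4%, against 12.4% of all genes), 14 with the higher mean in CAMK (19.4%, against 6.60%) and 5 with the lower (6.94%, against 5.79%). Groups did not overlap for 16 members with CAMK higher (22.2%, against 9.22% of all genes) and 7 with it lower (9.72%, against 8.80%). The median difference was 0.09 over the members and 0.00 over all genes. By class it was 0.11 in voltage-gated genes (27 of 34 positive), -0.05 in inward rectifiers (4 of 10), 0.27 in two-pore genes (5 of 8), 0.02 in calcium- and sodium-activated genes (4 of 7) and -0.12 in auxiliary subunits (5 of 11). Without WT 2, WT 3 and CX3CL1-ct 5 the two-pore median was -0.10, the auxiliary median 0.00 and that of calcium- and sodium-activated genes 0.18. Without CAMK 2, CAMK 3 and CX3CL1-ct 5, chosen for their thalamic markers, the inward rectifier median was 0.06 and the voltage-gated median 0.20. The first of these 2 fits leaves WT 1 alone in WT, and the second leaves CAMK 1 alone in CAMK. With the libraries scaled to a common sum outside small RNA genes, 3 of 7 calcium- and sodium-activated genes were positive and their median was -0.01.

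**Figure D4:**
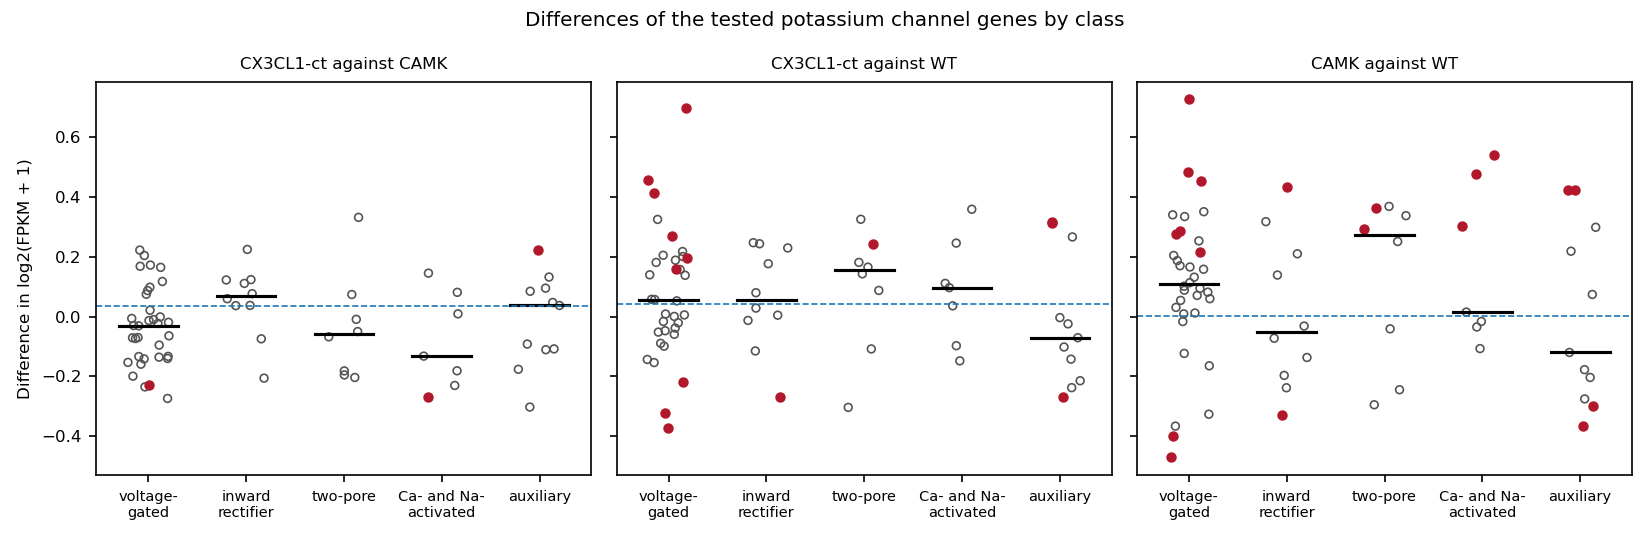
Difference in log2(FPKM + 1) (y axis) of each tested member in the 5 classes (x axis) for the 3 comparisons; filled points have an unadjusted p under 0.05, short black lines mark class medians, and the dashed line marks the median of all genes tested. No point has an adjusted p under 0.05. The two-pore median of 0.27 in CAMK against WT was -0.10 without WT 2, WT 3 and CX3CL1-ct 5, a fit with WT 1 alone in WT.

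The genes with the smallest p against WT were mostly voltage-gated or auxiliary, the 2 largest classes (34 and 11 of the 72 members tested). In CAMK against WT these classes held 8 and 4 of the 19 members with an unadjusted p under 0.05, near their share of the members tested. Kcna1, a low-threshold channel of axons (chromosome 6, 126640397 to 126646384, minus strand), stood at 7.82, 6.75 and 6.59 FPKM in WT, 5.49, 4.51 and 4.47 in CAMK and 4.596 to 6.40 (median 5.14) in CX3CL1-ct. Every WT library was above every other. The log2 difference was -0.47 in CAMK (95% interval -0.73 to -0.21, adjusted p = 0.124) and -0.37 in CX3CL1-ct (-0.59 to -0.15, adjusted p = 0.154). Without WT 2, WT 3 and CX3CL1-ct 5, so against WT 1 alone, these differences were -0.60 and -0.48. The first was -0.31 without CAMK 2, CAMK 3 and CX3CL1-ct 5, with CAMK 1 alone in its group.

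Kcna4 (chromosome 2, 107290639 to 107298502, plus strand) read 13.5, 20.8 and 18.5 FPKM in WT, 12.3, 13.3 and 13.2 in CAMK and 13.01 to 15.4 (median 13.5) in CX3CL1-ct. WT 1 lay among the transgenic libraries in level, and WT 2 and WT 3, those with striatal markers, stood above all. The differences were -0.40 in CAMK (adjusted p = 0.203) and -0.32 in CX3CL1-ct (adjusted p = 0.238). They were -0.06 and -0.02 without WT 2, WT 3 and CX3CL1-ct 5, and -0.57 (adjusted p = 0.0172) and -0.49 (adjusted p = 0.0187) without WT 1. The value thus rests on WT 2 and WT 3.

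Kcnh7 (chromosome 2, 62693414 to 63184287, minus strand) stood at 11.3, 9.81 and 11.9 in WT, 14.8, 16.4 and 16.1 in CAMK and 12.1 to 19.1 (median 14.98) in CX3CL1-ct, with no overlap between WT and the rest. The log2 difference was 0.48 in CAMK (95% interval 0.21 to 0.76, adjusted p = 0.137) and 0.42 in CX3CL1-ct (0.18 to 0.66, adjusted p = 0.142), and 0.45 and 0.44 without WT 2, WT 3 and CX3CL1-ct 5. Without CX3CL1-ct 6 the first had an adjusted p of 0.0475, and without CX3CL1-ct 5 the second had 0.0430 (log2 difference 0.47). Kcnv1 (chromosome 15, 45106284 to 45114920, minus strand) was at 5.41, 7.36 and 7.66 in WT, 12.97, 9.83 and 12.9 in CAMK and 8.18 to 14.5 (median 13.01) in CX3CL1-ct. Its differences were the widest of the members, 0.73 in CAMK (0.24 to 1.22, adjusted p = 0.209) and 0.70 in CX3CL1-ct (0.27 to 1.12, adjusted p = 0.161), again without overlap. Without WT 2, WT 3 and CX3CL1-ct 5 they were 1 and 1.06. With the replicate number as a block it was 0.89 in CX3CL1-ct (adjusted p = 0.0347), although no label pairs these libraries and pairing was not shown.

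Kcna6 stood at 17.6, 17.0 and 18.1 in WT, 21.3, 21.2 and 22.01 in CAMK and 18.2 to 22.6 (median 19) in CX3CL1-ct. The difference of CAMK from WT was 0.28 (95% interval 0.11 to 0.44, adjusted p = 0.149), without overlap. Kcna3, a Shaker-type channel, was compared between CX3CL1-ct (9.89 to 14.4, median 12.2) and WT (10.5, 10.03 and 9.13), which overlapped, with a difference of 0.27 (adjusted p = 0.269) and of 0.14 without WT 2, WT 3 and CX3CL1-ct 5. Kcnc4, a fast inactivating relative of Kcnc2, read 5.91, 4.72 and 4.78 in WT and 7.21, 7.67 and 7.27 in CAMK (0.46, adjusted p = 0.282). Its highest value, 8.72, was in CX3CL1-ct 5, and CAMK 2, CAMK 3 and that library were the ones with thalamic markers, whose part was not tested; without them the difference was 0.43, and without WT 2, WT 3 and CX3CL1-ct 5 it was 0.28.

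Among auxiliary subunits, Kcnmb2, which makes large-conductance channels inactivate (chromosome 3, 31902507 to 32200180, plus strand), had the smallest p of all members. It stood at 3.48, 3.50 and 3.17 in WT, 5.91, 4.58 and 4.28 in CAMK and 4.04 to 4.64 (median 4.58) in CX3CL1-ct. All 9 transgenic libraries were above the 3 of WT. The difference was 0.43 in CAMK (95% interval 0.21 to 0.64, adjusted p = 0.0992) and 0.31 in CX3CL1-ct (0.13 to 0.50, adjusted p = 0.157). Over the alternatives the adjusted p ranged from 0.0858 to 0.385 in the first and from 0.0865 to 0.567 in the second. The first difference was 0.66 without CAMK 2, CAMK 3 and CX3CL1-ct 5.

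Kcnip2 stood at 19.96, 22.3 and 22.7 in WT, above the 18.2, 15.3 and 16.4 of CAMK, while the 17.2 to 22.01 of CX3CL1-ct overlapped both. The difference of CAMK from WT was -0.36 (95% interval -0.57 to -0.16, adjusted p = 0.135), and -0.24 without CAMK 2, CAMK 3 and CX3CL1-ct 5. Kcnip4 went the other way, at 7.66, 8.28 and 8.53 in WT, 10.1, 12.2 and 11.6 in CAMK and 7.70 to 11.9 (median 10.5) in CX3CL1-ct. Its differences were 0.42 in CAMK (adjusted p = 0.203, and 0.28 without the same 3 libraries) and 0.32 in CX3CL1-ct (adjusted p = 0.281), and the second was 0.40 (adjusted p = 0.0400) without CX3CL1-ct 4, the 1 transgenic library within the WT range. Both genes encode partners of Kcnd pores, and Kcnd2 itself differed by -0.22 between CX3CL1-ct and WT (adjusted p = 0.396).

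In the remaining classes, Kcnj10, the potassium uptake channel of astrocytes (chromosome 1, 172341210 to 172374085, plus strand), was at 3.62, 3.85 and 3.77 in WT, 2.25, 3.15 and 3.002 in CAMK and 2.75 to 3.29 (median 2.83) in CX3CL1-ct. WT was above all others. The difference was -0.33 in CAMK (adjusted p = 0.215, and -0.55 without CAMK 2, CAMK 3 and CX3CL1-ct 5) and -0.27 in CX3CL1-ct (adjusted p = 0.248). The 7 astrocyte markers summed to 426 to 524 FPKM in WT, 391.5 to 406.5 in CAMK and 390.6 to 528 in CX3CL1-ct, and their part in the result was not tested. Kcnk10 stood at 13.8, 12.6 and 12.8 in WT, 17.4, 15.1 and 16.2 in CAMK and 12.8 to 17.9 (median 15.9) in CX3CL1-ct, with differences of 0.29 (adjusted p = 0.324) and 0.24 (adjusted p = 0.352). Kcnt2 read 7.72, 6.26 and 8.38 in WT, 11.3, 9.90 and 10.97 in CAMK and 7.80 to 13.3 (median 8.24) in CX3CL1-ct, and CAMK differed from WT by 0.48 (adjusted p = 0.267). Kcnn1, a small-conductance channel, read 5.17, 3.01 and 3.82 in WT and 5.32, 5.88 and 7.45 in CAMK (0.54, adjusted p = 0.309), and the difference was 0.22 without WT 2, WT 3 and CX3CL1-ct 5. Kcnmb4os2 was the noncoding member with the smallest p in each comparison and stood at 2.58, 2.47 and 2.19 in WT, 4.75, 2.35 and 2.24 in CAMK and 1.91 to 4.91 (median 3.61) in CX3CL1-ct, so CAMK 1 alone set its group apart from WT.

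**Figure D5:**
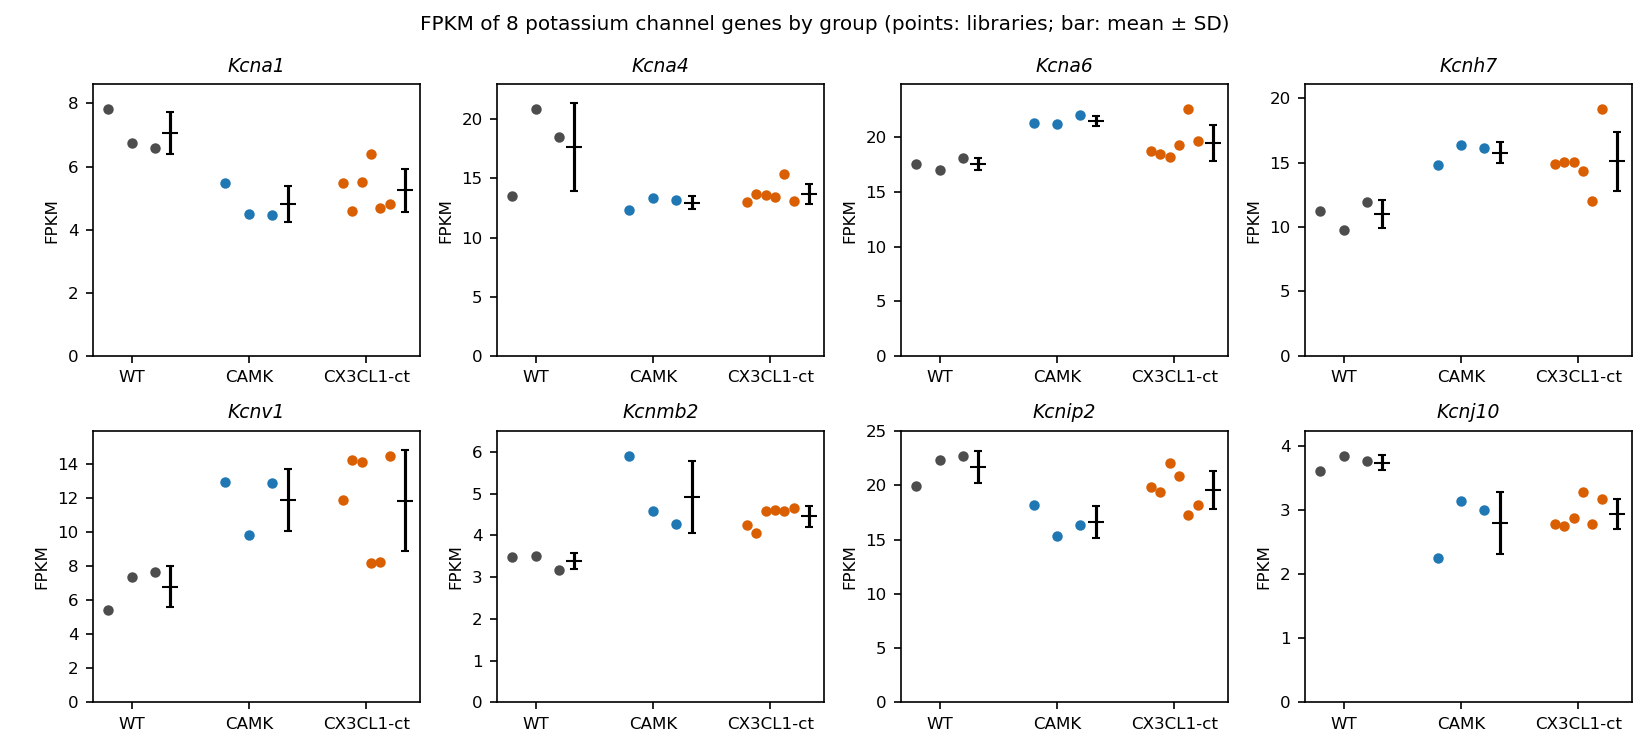
FPKM (y axes, from 0) of Kcna1, Kcna4, Kcna6, Kcnh7, Kcnv1, Kcnmb2, Kcnip2 and Kcnj10 for the 3 groups (x axis); points are libraries and bars give group mean ± SD. Kcnmb2 lies between 3.17 and 3.50 in WT and between 4.04 and 5.91 in the other libraries, while for Kcna4 WT 1 (13.5) lies with the transgenic libraries.

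Partners of potassium channels outside the Kcn symbols were taken as a list of 23 genes: proteins that bind the channels, the cation channels of the Hcn family and subunits of the sodium-potassium pump. All 23 were in the table and 20 passed the filter (all but Lrrc26, Lrrc38 and Lrrc52). None was called in any comparison, where 0.0606%, 0.454% and 0.358% of all genes tested were, in the order above. An unadjusted p under 0.05 was reached by 1, 4 and 4 of 20, against 6.37%, 12.3% and 12.4% of all genes. Hcn4, a pacemaker channel, stood at 4.95, 4.80 and 4.62 FPKM in WT, 6.84, 6.92 and 7.27 in CAMK and 5.61 to 7.82 in CX3CL1-ct, above WT in all 9 transgenic libraries. Its difference was 0.47 in CAMK (adjusted p = 0.0713) and 0.37 in CX3CL1-ct (adjusted p = 0.0909). Dpp10, which binds Kcnd pores, differed by 0.41 between CX3CL1-ct and WT (adjusted p = 0.266). Between CX3CL1-ct and CAMK, Atp1b2 had a difference of -0.20 (adjusted p = 0.775).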

How the data were processed

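The authors deposited FPKM values for 29454 genes in 12 libraries. Build mm10 and TopHat, Bowtie, Cufflinks and Cuffdiff are listed in the submitters' processing notes, with no versions or order. Per the labels, 100 ng or more of RNA (integrity number 7.0 or above) was depleted of ribosomal RNA and made into stranded libraries read for 100 cycles from both ends. How FPKM were scaled and whether strand was used are not given in the sources used here. As counts were not used here, depth was estimated, assuming fragments of 180 nt, from the lowest values of single-exon genes of 500 to 5000 nt.

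Groups came from the sample titles. Values were used as log2(FPKM + 1), which understates changes of low genes, and genes that reached 1 FPKM in 3 or more libraries were tested. limma 3.58.1 in R 4.3.3 fitted the 3 group means to all 12 libraries (eBayes with trend, two-sided), with Benjamini-Hochberg adjustment over all 16503 genes and a threshold of 0.05. The script was tested on simulated data. The members and lists were chosen with earlier results of these data known. Genes are named where they have the 4 highest means of a class (2 of the noncoding members), the 8 smallest p of a comparison or the smallest of a class in it, the 6 largest SD, or the 6 largest differences among groups that do not overlap; of the partners, the 3 smallest p. Some items that these rules would name are not reported here. Other names give the order within a family, the extremes, or overlaps. Gene IDs were matched to GENCODE M21 (29258 of 29454, and 94 of 94 members), which gave coordinates and exon overlaps. Promoters are from RefSeq (GRCm38.p6); of several starts the one with most CpG was taken, and only bases before the start were used. CX3CL1-ct replicates 1 to 3 were averaged as an alternative. The fit with the replicate number as a block used only the 2 groups compared and replicates 1 to 3, so CX3CL1-ct 4 to 6 were left out of it. Same-numbered CAMK and WT libraries deviated together (correlations of 0.236, 0.163 and 0.100 over genes). Correlations between CX3CL1-ct and the same numbers of CAMK (0.110, -0.130 and -0.0912) or of WT (0.114, -0.0622 and 0.0106) were of both signs. Different numbers were not compared and no label pairs libraries, so pairing was not shown. The fits without libraries high in striatal or thalamic markers were chosen after seeing the data. They leave WT 1 alone in WT, or CAMK 1 alone in CAMK, so a shift against or of that group rests on 1 library. Summaries used pandas 2.3.3, numpy 2.4.6 and matplotlib 3.10.9 under Python 3.11.15.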

Additional observations from a re-analysis of the deposited data

Results flagged for a closer look

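In the group of 6 CX3CL1-ct libraries, 46 values (the genes named by rule and the class sums) were checked for a library far from the other 5, and 14 had one. Chance gives about 1 in 20 for a value chosen without regard to its spread, but some of these genes were named for a large spread, and the class sums contain the same genes, so the 14 cannot be read against that rate. CX3CL1-ct 5 held 7 of them. It was far above the others for Kcna4 (15.4 FPKM, next 13.6), Kcna6 (22.6, next 19.7), Kcnip1 (28.9, next 17.2), Kcnt1 (11.7, next 8.09) and Kcnq1ot1 (8.32, next 6.99). It was far below them for Kcnj3 (13.9, next 20.6) and the inward rectifier sum (49.3, next 60.3). In this library the hippocampal neuron markers summed to 126 FPKM and the striatal and thalamic markers to 129 and 111, and their part was not tested.

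CX3CL1-ct 6 held 6. It was far above the others for Kcnma1 (41.0 FPKM, next 31.0), Kcnq3 (26.6, next 19.9), Kcnt2 (13.3, next 9.18), Kcnj9 (7.00, next 5.09), the voltage-gated sum (354, next 321) and the calcium- and sodium-activated sum (86.7, next 72.7). Its hippocampal neuron markers summed to 424 FPKM, the highest of the 12 libraries. CX3CL1-ct 4 was far below the others for Kcnip4 (7.70 FPKM, next 10.5).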

How the results depend on the processing

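The number of Kcn genes called, 0 in each comparison, stayed at 0 in 63 of 69 refits and was 1 in the other 6. In CX3CL1-ct against WT it was 1 (Kcnv1) with the replicate block, which also leaves out CX3CL1-ct 4 to 6. It was 0 to 1 with 1 library left out: 1 without CX3CL1-ct 4 (Kcnip4), CX3CL1-ct 5 (Kcnh7) or WT 1 (Kcna4). In CAMK against WT it was 0 to 1, with 1 without CX3CL1-ct 6 (Kcnh7) or WT 1 (Kcna4), and with the replicate block it was 0. In CX3CL1-ct against CAMK it was 0 throughout, also with the block. Of 818 refits of a named gene's difference, 3 changed sign, all for Kcnmb4os2: -0.27 without CAMK 2, CAMK 3 and CX3CL1-ct 5 in CX3CL1-ct against CAMK, where leaving out 1 library gave -0.000732 (CAMK 3) to 0.41 (CAMK 1), and, in CAMK against WT, -0.04785 (without CAMK 1) to 0.37 (without CAMK 3). The cause was not tested. Class medians moved by more than the spread between libraries in 44 of 345 refits.

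Over all genes the calls moved by more than 1.5 times in 29 of 69 refits. They went from 10 to 48 with the block in CX3CL1-ct against CAMK. In CX3CL1-ct against WT, 75 became 28 with CX3CL1-ct 1 to 3 averaged, 30 with an FPKM of at least 5, 144 without a filter, 38 with only the groups compared and 12 without WT 2, WT 3 and CX3CL1-ct 5. In CAMK against WT, 59 became 26, 30, 123 and 10 under the averaging, the 2 filters and the same exclusion, and 112 with the block. Where 1 library of a group was left, it is assumed to vary like the others. FPKM without counts give no counting error, and below 0.1 FPKM, where 14 members lie, a level rests on few fragments.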
